A study of Mus musculus with 51 samples.

Results

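H3K27me3 was compared between the extra-embryonic ectoderm (ExE) and the epiblast of wild-type mouse embryos at E6.5, over 8 of the 51 libraries of the series. The 4 epiblast libraries (Epi) and the 4 ExE libraries each comprise 2 of B6/CAST and 2 of CAST/B6, F1 hybrids of C57BL6/Babr and CAST/EiJ in which the mother's strain is written first. Each library was made by ultra low-input native ChIP-seq from a pool of dissected tissue, 4 epiblasts or 8 ExE, so that a library is a mean over embryos and over any other cells the dissection carried along. The labels do not say whether the pools came from separate litters, and p-values therefore measure only the spread between these samples. The same contrast in matDKO/CAST (2 libraries a tissue), whose mothers were Dnmt3a and Dnmt3b floxed on a B6/129 background with Zp3-cre, a transgene that deletes floxed genes in the growing oocyte, was used where libraries outside the choice of regions were needed. The regions were the autosomal union of the 4 wild-type H3K27me3 peak lists, 23395 in all. A focal CpG-rich target was a region under 20 kb with at least 1 CpG-rich window, a broad domain a region of at least 20 kb, and by these rules there were 1455 focal CpG-rich targets, 6955 broad domains (2383 with and 4572 without a CpG-rich window) and 14985 short regions without a CpG-rich window.

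H3K27me3 is deposited by Polycomb repressive complex 2 and is associated with genes that are kept silent but can still be activated. In embryonic cells it is typically focused on CpG islands of developmental regulators, where it often lies beside H3K4me3, the mark of active or poised promoters. In other cell types it can also spread at a low level over long stretches of chromatin. The epiblast gives rise to the embryo proper, and the ExE holds the trophoblast progenitors of the placenta.

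The stretches of DNA upstream of 4 gene starts are shown because they lie in regions that carried large differences, in either direction and in either class. Each is the 250 bases before a gene start from RefSeq on GRCm38.p6, 5′ to 3′ on the gene's own strand, with every CpG in capitals.
Tbx20, in a focal target lower in ExE, 22 CpG, chr9:24774304-24774553, minus strand: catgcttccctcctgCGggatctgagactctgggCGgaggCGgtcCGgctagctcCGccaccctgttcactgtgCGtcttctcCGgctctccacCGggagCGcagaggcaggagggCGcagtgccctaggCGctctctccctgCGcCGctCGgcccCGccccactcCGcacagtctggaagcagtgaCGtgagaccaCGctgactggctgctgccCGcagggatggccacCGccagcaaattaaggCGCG
Sox4, in a focal target higher in ExE, 11 CpG, chr13:28953700-28953949, minus strand: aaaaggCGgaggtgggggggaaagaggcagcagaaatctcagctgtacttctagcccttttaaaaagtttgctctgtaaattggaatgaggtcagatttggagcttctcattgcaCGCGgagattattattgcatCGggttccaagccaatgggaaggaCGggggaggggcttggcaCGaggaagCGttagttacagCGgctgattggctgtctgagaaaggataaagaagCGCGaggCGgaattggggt
Cyp26a1, in a broad domain lower in ExE, 20 CpG, chr19:37697558-37697807, plus strand: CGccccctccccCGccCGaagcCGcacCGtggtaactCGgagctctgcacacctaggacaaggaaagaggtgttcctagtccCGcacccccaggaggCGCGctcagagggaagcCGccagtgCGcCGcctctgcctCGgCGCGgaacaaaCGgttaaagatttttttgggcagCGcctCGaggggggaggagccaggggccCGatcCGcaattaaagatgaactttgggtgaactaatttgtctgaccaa
Slc22a2, in a broad domain higher in ExE, 6 CpG, chr17:12583939-12584188, plus strand: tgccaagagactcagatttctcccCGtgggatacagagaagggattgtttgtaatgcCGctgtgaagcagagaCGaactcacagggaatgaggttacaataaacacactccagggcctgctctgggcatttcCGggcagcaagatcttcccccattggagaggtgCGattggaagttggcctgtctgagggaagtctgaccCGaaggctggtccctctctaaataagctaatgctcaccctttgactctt
Over all 32851 such promoters the median was 6 CpG, with quartiles of 2 and 16, so that the Tbx20 and Cyp26a1 starts lie above the upper quartile and the Slc22a2 start at the median. A sequence was found for 29 of the 40 genes named by region.

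The libraries held 9.10 to 14.8 M reads in epiblast and 14.5 to 22.9 M in ExE, and 42.9 to 50.5% and 48.7 to 55.6% of the signal lay in the regions. Depth thus moved with tissue, and its part in the results was not tested. The peak lists differed in extent, with 104 and 117 Mb covered in epiblast (B6/CAST and CAST/B6) and 369 and 478 Mb in ExE. Of the bases listed in epiblast 91.0 to 95.9% lay in an ExE list, whereas 20.8 to 28.8% of those listed in ExE lay in an epiblast list. Since the lists were called on these same libraries, the 14617 regions listed only in ExE and the 918 listed only in epiblast were chosen partly on the measure compared. B6/CAST Epi replicate 1 stood nearest to ExE, with correlations of 0.67 to 0.72 with ExE libraries over regions against 0.52 to 0.69 for the other epiblast libraries, and counts without it are given for all regions, focal targets, broad domains together, the ratio within domains, promoters and H3K4me3.

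H3K4me3 at promoters was used to check the dissections. It was lower in every ExE than in every epiblast library at 5 of 8 epiblast markers, among them Pou5f1 (45.2 RPKM in epiblast and 7.89 RPKM in ExE) and Nanog. Of 8 ExE markers 3 were above and 1 below the epiblast libraries, and Elf5 and Esrrb stayed under 1 RPKM in both tissues. Visceral endoderm markers had more H3K4me3 in all ExE libraries at 5 of 8 genes (summed level 31.5 to 60.3 RPKM in epiblast and 66.0 to 99.9 RPKM in ExE), while all 6 decidua and blood markers were under 1 RPKM. Of 6 ectoplacental cone and giant cell markers 1 was above in all ExE libraries, Hand1 (mean 10.9 RPKM in epiblast and 19.4 RPKM in ExE). Prl2c2, Prl3d1 and Tpbpa were under 1 RPKM in both tissues. The level summed over all 6 markers was 11.7 to 23.5 RPKM in epiblast and 22.2 to 28.2 RPKM in ExE. The part of either cell type in the H3K27me3 differences was not tested. In such pools a change in all cells and a change in the share of a cell type cannot be told apart.

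Relative to the median region, most focal CpG-rich targets had less H3K27me3 in ExE, while most CpG-poor broad domains passed in neither direction and those that passed were more often higher than lower. All differences are log2 of RPKM (reads scaled to window length and library depth) plus 0.5, ExE minus epiblast, with each library set to its median region. In limma 6142 regions (26.3%) passed an adjusted p of 0.05, 2459 (10.5%) higher and 3683 (15.7%) lower in ExE. As deposited, without that scaling, the median region was 0.22 higher in ExE, and of 12476 called regions (53.3%) 10464 (44.7%) were higher and 2012 (8.6%) lower. All 2459 higher calls and 2012 of the 3683 lower calls were also made as deposited. Without B6/CAST Epi replicate 1 the counts were 2581 higher and 3612 lower.

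Of the 1455 focal CpG-rich targets 883 (60.7%) were lower and 85 higher, with a median difference of -0.42. The scaling itself puts the median over all regions at 0.00. Their mean RPKM was 1.24, 1.40, 1.77 and 1.54 in the epiblast libraries (B6/CAST replicates 1 and 2, then CAST/B6 replicates 1 and 2, the order used throughout). In ExE it was 1.08, 0.970, 1.22 and 1.08, all values as deposited. The tissues did not overlap, but by a narrow margin, with 1.24 RPKM the lowest in epiblast and 1.22 RPKM the highest in ExE. In the 1109 focal targets listed in both tissues 704 were lower and 40 higher, with a median of -0.42. As deposited, 645 of the 1455 were lower and 246 higher, with a median of -0.21 beside 0.22 over all regions. Relative to the median region and without B6/CAST Epi replicate 1, 865 were lower and 97 higher. In B6/CAST alone 568 were lower (8.17% of all regions were) and 28 higher (2.47%), and in CAST/B6 alone 773 were lower (12%) and 34 higher (5.21%).

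Relative to the median region, broad domains divided by their CpG content. Of the 4572 domains with no CpG-rich window 891 (19.5%) were higher and 285 lower, with a median of 0.06. Of the higher ones 430 were listed in ExE only, and among the 2278 domains listed in both tissues 461 were higher and 253 lower. Their mean RPKM was 0.645, 0.626, 0.729 and 0.6001 in epiblast and 0.899, 0.797, 0.934 and 0.905 in ExE, as deposited. The median of all regions moved as well, from 0.544 to 0.644 RPKM in the epiblast libraries to 0.712 to 0.786 RPKM in ExE, also without overlap. Of the 2383 domains with a CpG-rich window 356 were higher and 735 (30.8%) lower, with a median of -0.04. As deposited the balance turned, with 923 of them higher and 341 lower and a median of 0.17. Of the domains without a CpG-rich window 3048 were higher and 65 lower as deposited. Together 1247 broad domains were higher and 1020 lower, and as deposited 3971 and 406. Among the 4583 listed in both tissues 785 were higher and 985 lower, and as deposited 2277 and 401. The total of 2267 moved to 1412, 1503 and 1438 without B6/CAST ExE replicate 1, CAST/B6 Epi replicate 2 and CAST/B6 ExE replicate 2, and to 2314 without B6/CAST Epi replicate 1.

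The difference followed region length in both classes. Among CpG-rich regions 179 of 228 (78.5%) under 5 kb were lower, with a median of -0.87. The share fell through 65.7%, 52.8%, 36.2% and 29.3% to 19.9% of the 497 of at least 100 kb, where the median was 0.05. Of these 497, 99 were lower and 98 higher. As deposited 70.2% of those under 5 kb were lower and 6.14% higher, and 9.26% and 52.1% of those of at least 100 kb. Among CpG-poor regions the share that was higher went from 5.02% of the 4664 under 5 kb to 32.9% of the 246 of at least 100 kb, with medians of -0.01 and 0.13. As deposited these shares were 32.2% and 87.8%. Around the 20 kb limit the values ran on smoothly, with medians of -0.21 for the 352 CpG-rich regions of 15 to 20 kb and -0.16 for the 305 of 20 to 25 kb. The lengths come from the peak lists themselves, so this is a description of the regions and not a separate measurement. The lists also set part of the trend. Of the 178 focal targets listed in epiblast only, with a median length of 3.5 kb, 174 were lower and 0 higher. The trend was not taken over regions listed in both tissues alone.

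**Figure D1:**
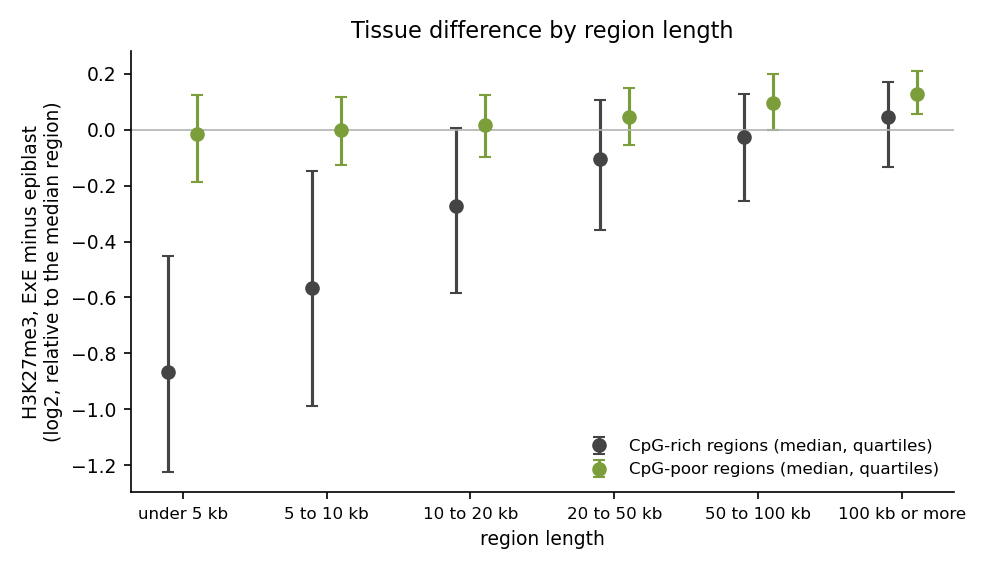
H3K27me3 difference between ExE and epiblast (y axis, log2 relative to the median region) by length class of the region (x axis), for CpG-rich and CpG-poor regions. Points are medians over regions and bars run from the first to the third quartile. The CpG-rich median rises from -0.87 under 5 kb to 0.05 at 100 kb or more, and the CpG-poor median from -0.01 to 0.13.

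Inside the same domain the CpG-rich windows could be set against their neighbours, a comparison that the centring of a library cannot affect. In the 2383 broad CpG-rich domains the mean over CpG-rich windows was 2.44, 2.40, 2.72 and 2.85 times that over the other windows in epiblast. In ExE it was 1.87, 1.83, 1.93 and 1.81 times, and the tissues did not overlap. As deposited the CpG-rich windows had 2.83 to 4.14 RPKM in epiblast and 2.13 to 2.91 RPKM in ExE (1 of the 4 ExE libraries lying within the epiblast range), and the other windows 1.17 to 1.52 RPKM in epiblast and 1.16 to 1.51 RPKM in ExE. Relative to the median region the CpG-rich windows were lower in 1220 domains (51.2%) and higher in 139 (5.83%), and the other windows lower in 658 (27.6%) and higher in 385 (16.2%). Domain by domain, limma called 1144 ratios (48%), lower in ExE in 1035 (43.4%) and higher in 109 (4.57%), with a median of -0.35, and without B6/CAST Epi replicate 1 891 were lower and 116 higher. In B6/CAST alone 393 domains (16.5%) were lower and 27 (1.13%) higher, and in CAST/B6 alone 831 (34.9%) and 38 (1.59%). In the inputs the ratio was 0.658 to 0.861 in epiblast and 0.634 to 0.713 in ExE, with 0 domains called by limma and 200 at an unadjusted p below 0.05, and dividing by the inputs left 877 domains lower and 165 higher. In matDKO/CAST the ratios were 2.12 and 1.90 in epiblast and 1.96 and 1.73 in ExE, which overlapped, and 145 domains (6.08%) were lower and 105 (4.41%) higher. The tissue difference itself was not called different between matDKO/CAST and B6/CAST in any domain by limma, with 209 at an unadjusted p below 0.05.

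**Figure D2:**
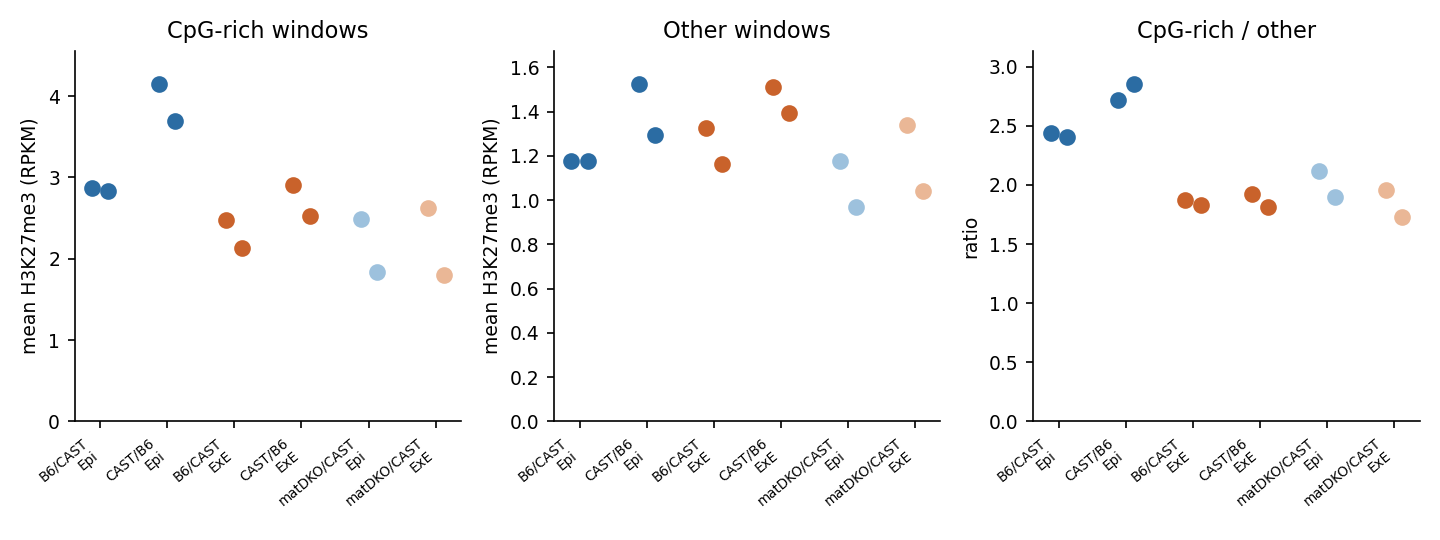
Mean H3K27me3 of the CpG-rich windows (left) and of the other windows (middle), in RPKM, and their ratio (right) over 2383 broad CpG-rich domains, with 1 point per library. The 4 wild-type epiblast libraries have ratios of 2.40 to 2.85 and the 4 wild-type ExE libraries 1.81 to 1.93, and the paler matDKO/CAST libraries overlap between tissues.

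The 8 focal targets named for the largest falls held genes of trophoblast, of patterning and of other functions. Not overlapping between tissues was a condition for naming a region, here and below. As deposited it held for 10328 of all 23395 regions (44.1%), 8814 (37.7%) higher in ExE and 1514 (6.47%) lower. Tbx20 (T-box factor of heart development; chr9:24765001-24784000) had 4.28, 6.41, 7.02 and 6.92 RPKM in epiblast and 1.60, 1.49, 1.48 and 1.35 RPKM in ExE. All 4 epiblast libraries were far above all ExE libraries, at 6.16 ± 1.28 and 1.48 ± 0.10 RPKM (SD, n = 4), and the log2 difference was -1.94 (SE 0.12, adjusted p = 1.27e-05). Klf5, a factor of trophoblast stem cells, had 1.78, 3.06, 4.08 and 4.05 RPKM in epiblast and 0.425, 0.563, 0.793 and 0.781 RPKM in ExE (log2 difference -1.89, SE 0.15, adjusted p = 2.71e-05). Tead4, required for the trophectoderm lineage, had 1.88, 2.81, 3.39 and 2.51 RPKM against 0.398, 0.627, 0.485 and 0.448 RPKM (log2 difference -1.87, SE 0.15, adjusted p = 3.07e-05). In both the lowest epiblast library, B6/CAST replicate 1, stayed above the highest ExE library. Id1, an inhibitor of basic helix-loop-helix factors, fell from 1.89 ± 0.79 to 0.233 ± 0.061 RPKM (SD, n = 4). The others of the 8 were Zc3hav1 (antiviral protein; 4.04 ± 1.17 to 0.642 ± 0.116 RPKM), Nrp2 (semaphorin and VEGF co-receptor; 3.39 ± 0.82 to 0.578 ± 0.250 RPKM), Sgk3 (kinase; 3.51 ± 0.63 to 0.703 ± 0.156 RPKM) and Pwwp2b (2.10 ± 0.40 to 0.235 ± 0.064 RPKM). Tead4, Id1 and Pwwp2b were listed in epiblast only, which set their direction, and the other 5 in both tissues. H3K4me3 was not called different at any of the 8 regions.

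Of the 8 focal targets named for a gain, Sox4, a transcription factor of progenitor cells (chr13:28947001-28963500), had 0.745, 0.453, 0.573 and 0.327 RPKM in epiblast and 1.86, 1.39, 1.55 and 1.17 RPKM in ExE. The tissues did not overlap and the log2 difference was 0.75 (SE 0.11, adjusted p = 0.000905), beside an H3K4me3 level that fell from 19.4 to 7.33 RPKM (log2 difference -1.42, adjusted p = 0.006). St6gal1, a sialyltransferase, rose from 0.337 ± 0.045 to 1.25 ± 0.04 RPKM and the Map7d1 and Trappc3 region from 0.545 ± 0.128 to 1.72 ± 0.02 RPKM (SD, n = 4). Zfp629, Prrg4, Rragd (a GTPase of amino acid sensing), Sort1 (sortilin) and Pcdh18 (protocadherin) rose 2.35- to 2.98-fold in mean RPKM. Except for Sox4, these 8 regions were listed in ExE only, so their direction had been set by the lists.

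Of the 8 broad domains named for a fall, the largest difference was at Tbx3, a T-box factor with roles in pluripotency and limb development. Its 46.0 kb domain (chr5:119648501-119694500) had 3.75, 5.96, 7.66 and 7.31 RPKM in epiblast and 0.944, 0.978, 0.901 and 0.868 RPKM in ExE, with a log2 difference of -2.40 (SE 0.15, adjusted p = 1.27e-05). The fall ran over the whole domain and also over the windows that were not CpG-rich (6.37 to 0.957 RPKM). The domain of the retinoic acid degrading enzymes Cyp26c1 and Cyp26a1 (chr19:37682001-37709000) had 3.73, 5.86, 6.08 and 5.98 RPKM against 0.720, 1.02, 1.25 and 1.04 RPKM (log2 difference -2.17, SE 0.16, adjusted p = 1.92e-05). The cell cycle inhibitor locus Cdkn2a and Cdkn2b (chr4:89264001-89316500) kept a higher level in ExE, at 2.21, 2.23, 3.01 and 2.73 RPKM, against 5.24, 8.09, 9.77 and 9.53 RPKM in epiblast (log2 difference -1.69, SE 0.17, adjusted p = 7.46e-05). In all 3 domains B6/CAST Epi replicate 1 was the lowest epiblast library and still above every ExE library. Tet2, which oxidises 5-methylcytosine, fell from 2.17 ± 0.28 to 0.404 ± 0.087 RPKM, Pdx1, a pancreatic homeobox factor, from 6.91 ± 2.02 to 2.09 ± 0.55 RPKM, and Pth1r (parathyroid hormone receptor), Ypel2 and Usp3, the last listed in epiblast only, fell 4.93- to 6.32-fold in mean RPKM (SD, n = 4).

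Of the 8 broad domains named for a gain, the largest difference was at the organic cation transporters Slc22a2 and Slc22a3 and the neighbouring plasminogen gene Plg (349 kb on chromosome 17). It had 1.18, 0.830, 0.987 and 0.825 RPKM in epiblast and 2.76, 2.25, 2.80 and 2.45 RPKM in ExE. The tissues did not overlap, as naming a region required, and the log2 difference was 0.86 (SE 0.10, adjusted p = 0.000161). The only CpG-rich window of that domain had 7.46 RPKM in epiblast and 5.24 RPKM in ExE and the other windows 0.938 and 2.56 RPKM, a log2 difference of -1.55 between them (SE 0.20, adjusted p = 6.59e-05). Efna5, an ephrin ligand (chr17:62866501-62911500), had 0.650, 0.657, 0.508 and 0.451 RPKM against 1.50, 1.36, 1.69 and 1.41 RPKM (log2 difference 0.69, SE 0.06, adjusted p = 4.61e-05). Here the gain was larger at the CpG-rich windows, from 0.366 to 2.54 RPKM. The transferrin receptor Tfrc, Lrp4, Chga (chromogranin A), Triobp, Prr7 with Dbn1, and Dact2 with Smoc2 rose 2.34- to 3.10-fold in mean RPKM.

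**Figure D3:**
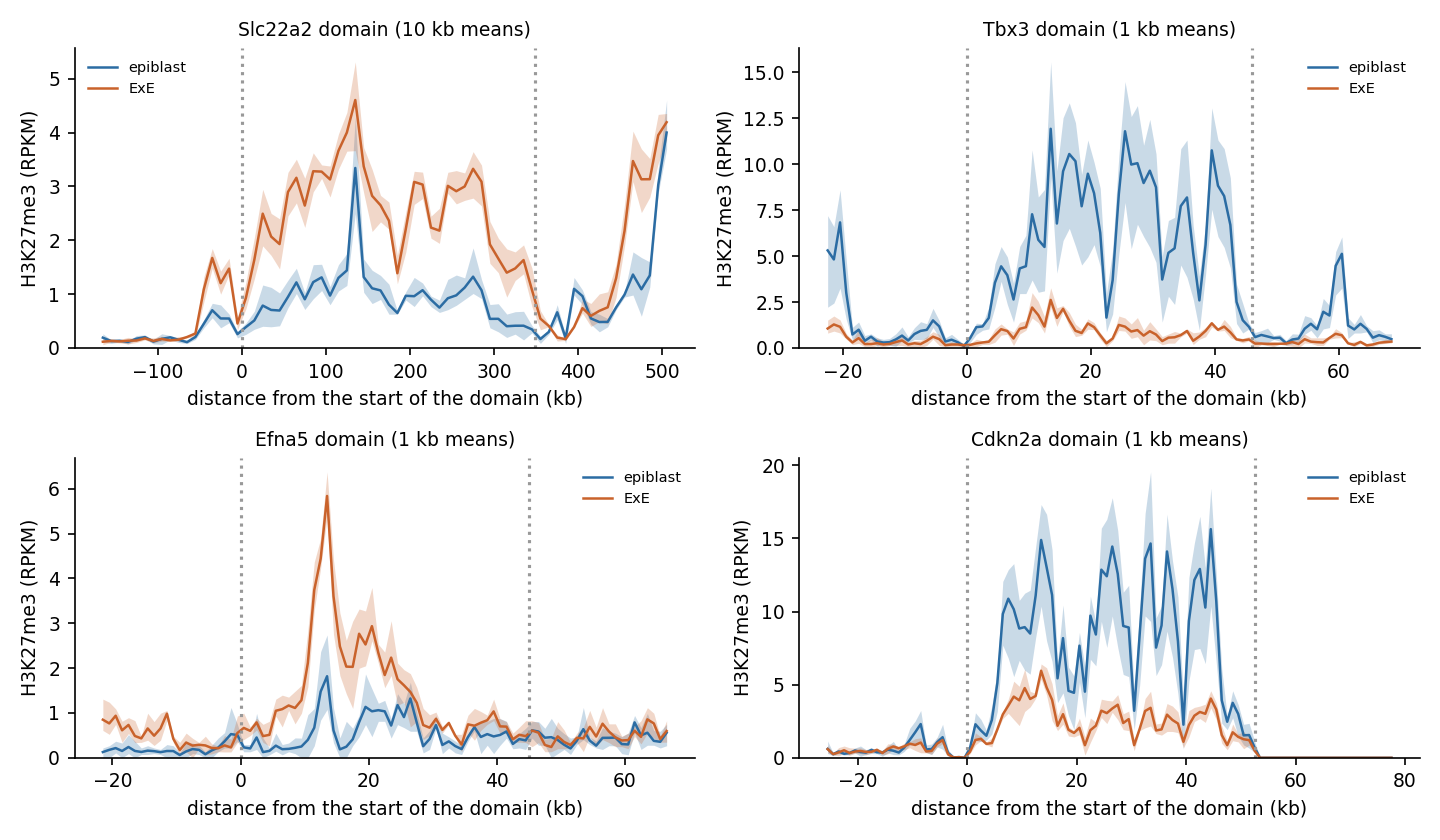
H3K27me3 (y axis, RPKM) against distance from the start of the domain (x axis, kb) at 4 domains, in means of 10 kb (Slc22a2) or 1 kb, with the mean of 4 libraries as a line, their lowest to highest value as a band and the ends of the domain dotted. In every mean inside the domain ExE lies above epiblast at Slc22a2 (349 kb) and Efna5, and below it at Tbx3 (46.0 kb) and at Cdkn2a. Past the end of the Cdkn2a domain the windows are listed at 0 in all libraries.

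The long domains of proximal chromosome 17 were higher in ExE almost without exception. The stretch from 4 to 15 Mb was singled out after its values were seen. Of its 19 domains of at least 100 kb, which covered 6647.5 kb, 18 were called higher and 0 lower by limma, beside 98 of 497 CpG-rich (19.7%) and 81 of 246 CpG-poor domains (32.9%) of that length and 10.5% of all regions, with differences of 0.21 to 0.92 and a median of 0.60. Relative to the median region the exception was the 355 kb domain of Prr18, T (Brachyury, the mesoderm regulator) and Pde10a, with 1.33 ± 0.07 RPKM in epiblast and 1.95 ± 0.17 RPKM in ExE, where the libraries did not overlap as deposited and the log2 difference was 0.21 (adjusted p = 0.11). This domain did pass as deposited (0.42, limma adjusted p = 0.011) and relative to windows outside regions (0.46, limma adjusted p = 0.012). It held the highest epiblast level of the 19. The longest region of all lay here, at Arid1b (797.5 kb; 0.431 ± 0.059 to 1.07 ± 0.12 RPKM), as did that at 1700010I14Rik (627.5 kb; 0.690 ± 0.068 to 1.63 ± 0.15 RPKM; SD, n = 4). In matDKO/CAST all 19 were called higher in ExE, with a median of 0.86.

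**Figure D4:**
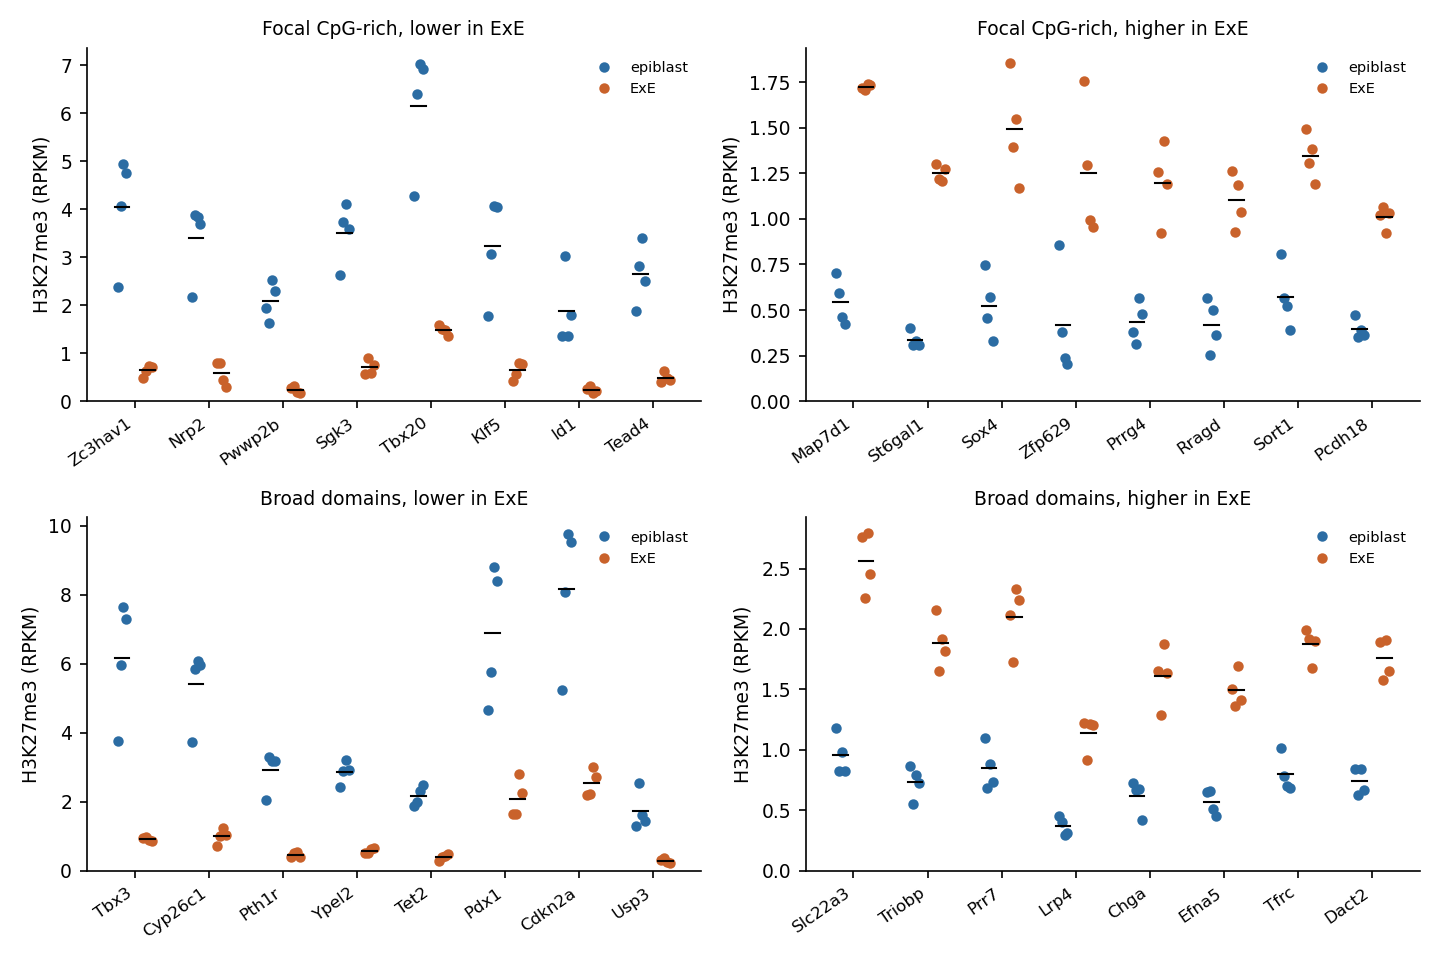
H3K27me3 (y axis, RPKM) in each of the 4 epiblast and 4 ExE libraries (points, with a bar at the mean) at the 8 regions named in each class and direction. In every panel the 2 tissues do not overlap, which was a condition for naming a region, and at Cyp26c1, Pth1r and Nrp2 a single lower point, B6/CAST replicate 1, stands apart in epiblast.

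At promoters a call is given only where it was the same relative to the median region, as deposited and relative to windows outside regions, because the first scaling alone lowers every promoter by 0.21. Relative to the median region limma called 9791 of 20806 protein-coding promoters (47.1%), 938 higher (4.51%) and 8853 lower (42.6%), which included 8 of 11 housekeeping promoters that carry almost no H3K27me3 (median 0.218 and 0.146 RPKM). As deposited 1214 (5.83%) were higher and 2010 (9.66%) lower, and relative to windows outside regions 1843 (8.86%) and 2003 (9.63%). Under all 3 scalings 854 (4.1%) were higher and 1712 (8.23%) lower, and 0 of the 11 housekeeping promoters in either direction. The count of 9791 moved to 6055 and 6426 without B6/CAST ExE replicate 1 and CAST/B6 ExE replicate 2, and to 8718 without B6/CAST Epi replicate 1. The median difference over all promoters was -0.26 relative to the median region and -0.05 as deposited. Among the 7925 promoters in a region 10.6% were higher and 16.0% lower, and among the 3425 of these that are CpG-rich 6.66% and 28.5%.

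Of 39 Hox promoters 35 (89.7%) fell and 0 rose, with a median of -1.10 relative to the median region and -0.89 as deposited. The median level was 11.5 RPKM in epiblast and 5.95 RPKM in ExE, so that they kept more than most genes have in either tissue. Hoxb3, an anterior Hox gene, had 10.1, 11.1, 14.4 and 12.9 RPKM in epiblast and 4.25, 3.40, 5.75 and 4.89 RPKM in ExE, without overlap, and Hoxa10 fell from 12.9 ± 2.9 to 5.01 ± 0.84 RPKM. The counts in the families below stand beside 8.23% lower and 4.1% higher over all promoters and, since most of their promoters are CpG-rich and lie in a region, 28.5% and 6.66% over such promoters, which the forkhead share lower is near. Of 50 neural and organ homeobox promoters 26 (52%) fell and 0 rose, among them Irx4 (10.8 ± 2.5 to 4.07 ± 0.53 RPKM), Irx1 and En1. Of 21 gastrulation regulators 8 (38.1%) fell, with Tbx20, Sox17 and Foxa2 at the head, of 41 forkhead genes 13 (31.7%) fell, led by Foxj2, Foxq1 and Foxa2, and 1 rose (Foxs1), and of 35 Sox, Gata and T-box genes 16 (45.7%) fell, led by Tbx3, Gata2 and Sox7, and 3 (8.57%) rose. Those 3 were Sox11 (0.800 ± 0.375 to 2.57 ± 0.44 RPKM), Sox4 and Sox9 (SD, n = 4), whose promoter H3K4me3 was 45.5, 41.8 and 26.99 RPKM in epiblast and 17.6, 16.4 and 12.3 RPKM in ExE.

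Of 16 trophoblast stem cell genes 9 (56.25%) fell and 0 rose, and of 15 epiblast genes 3 (20%) rose and 0 fell. Over all promoters 8.23% fell and 4.1% rose, and over promoters in a region 16.0% and 10.6%. Over CpG-rich promoters in a region the shares were 28.5% and 6.66%. The trophoblast list had a median difference of -1.23 (as deposited -1.02). Cdx2, a homeobox factor that defines trophoblast, had 4.84, 6.71, 9.52 and 8.55 RPKM in epiblast and 1.18, 1.61, 1.37 and 1.31 RPKM in ExE (log2 difference -2.26, SE 0.16, adjusted p = 4.33e-15), beside an H3K4me3 level of 11.9 RPKM in epiblast and 28.0 RPKM in ExE. Tead4 fell from 4.73 ± 1.47 to 0.658 ± 0.163 RPKM and Id2 from 2.74 ± 0.98 to 0.257 ± 0.092 RPKM, and Gata2, Gata3, Tfap2c, Hand1, Bmp4 and Klf5 fell as well. Elf5 (0.557 and 0.8294 RPKM) and Esrrb (1.32 and 2.12 RPKM in epiblast and ExE) did not pass. The 3 epiblast genes that rose were Fgf5, Otx2 and Tdgf1. Otx2, a homeobox factor of the anterior epiblast, had 1.41, 0.733, 1.91 and 1.62 RPKM in epiblast and 3.25, 3.38, 4.15 and 3.08 RPKM in ExE, and the growth factor gene Fgf5 rose from 0.606 ± 0.195 to 1.98 ± 0.63 RPKM. Pou5f1 had 0.850 and 1.26 RPKM and did not pass.

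**Figure D5:**
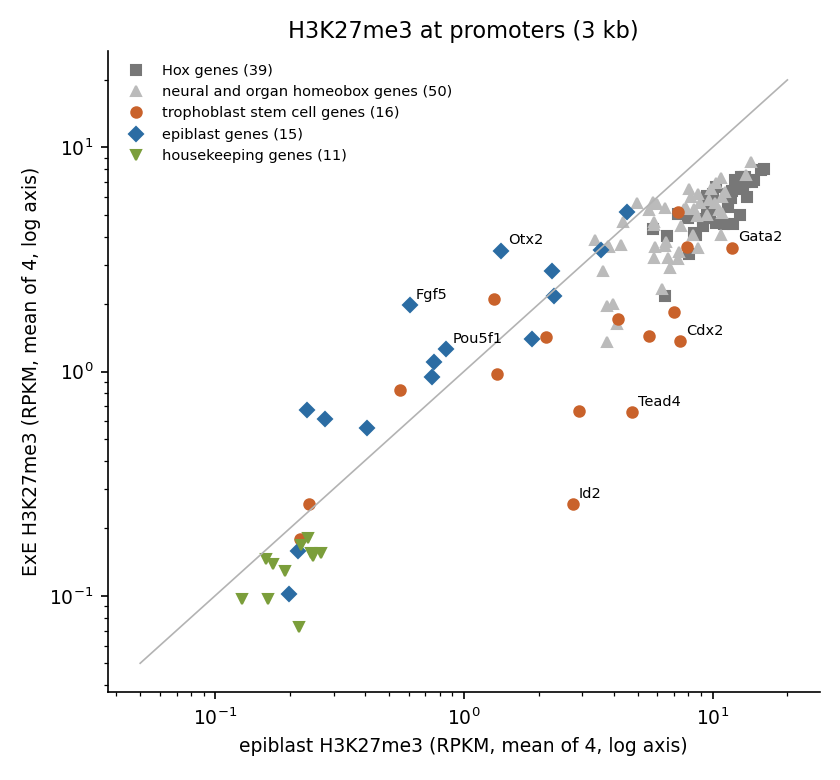
Promoter H3K27me3 in epiblast (x axis) and ExE (y axis), as the mean RPKM of 4 libraries on log axes, for 5 gene lists, with the diagonal marking equal levels. Hox promoters lie below the diagonal at high levels, Cdx2, Tead4 and Id2 lie far below it, Fgf5 and Otx2 lie above it, and the 11 housekeeping promoters lie at low levels.

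Of 38 signalling ligands and antagonists 15 (39.5%) fell and 2 (5.26%) rose, beside 8.23% and 4.1% over all promoters, 16.0% and 10.6% over those in a region and 28.5% and 6.66% over CpG-rich ones in a region. The Wnt antagonist Dkk1 fell from 2.27 ± 0.53 to 0.369 ± 0.105 RPKM, Bmp4, which ExE secretes toward the epiblast, from 5.57 ± 1.47 to 1.44 ± 0.10 RPKM and Ihh from 11.7 ± 1.0 to 3.87 ± 0.98 RPKM. Fgf5 and Fgf8 rose, Fgf8 from 3.15 ± 0.75 to 5.36 ± 0.63 RPKM (SD, n = 4).

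Of 16 visceral endoderm genes 7 fell and 0 rose, beside 8.23% lower over all promoters and 16.0% over those in a region, with Amn (5.86 ± 1.42 to 1.48 ± 0.57 RPKM) and Sox17 among them. Visceral endoderm markers also carried more H3K4me3 in ExE at 5 of 8 genes, as given above. Of the 32 ectoplacental cone and giant cell genes, mostly prolactin family members, only Hand1 fell. Of 17 germline genes Stk31, Dazl and Ddx4 (17.6%) fell, close to the 16.0% over promoters in a region, Dazl from 1.17 ± 0.13 to 0.534 ± 0.192 RPKM. Of 21 Polycomb genes 4 (19.05%) fell, among them Cbx8, Bmi1 and Phf19, and Cbx6 (4.76%) rose, beside 8.23% and 4.1% over all promoters. Since 20 of the 21 are CpG-rich and 10 lie in a region, the share lower is near those of like promoters. These are 13.3% over CpG-rich promoters and 16.0% over promoters in a region. Cbx8 (a chromodomain subunit) went from 4.76 ± 1.05 to 1.37 ± 0.31 RPKM and Cbx6 from 1.13 ± 0.11 to 2.17 ± 0.31 RPKM. Among 1457 olfactory and vomeronasal receptor genes 7 fell and 4 rose.

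Of 18 placental imprinted genes 7 (38.9%) fell and 3 (16.7%) rose, beside 8.23% and 4.1% over all promoters. Since 17 of the 18 lie in a region and 13 are CpG-rich, closer shares are 16.0% and 10.6% over promoters in a region. Over CpG-rich promoters in a region they are 28.5% and 6.66%. Igf2, a fetal growth factor, fell from 4.67 ± 1.55 to 1.02 ± 0.33 RPKM, Igf2r from 2.29 ± 0.45 to 0.666 ± 0.112 RPKM and Sfmbt2, a Polycomb-related gene, from 8.70 ± 2.20 to 3.63 ± 0.60 RPKM. Tssc4 rose from 0.402 ± 0.098 to 1.68 ± 0.33 RPKM, Slc22a2 from 1.27 ± 0.11 to 3.43 ± 0.31 RPKM and Cd81 from 1.04 ± 0.26 to 2.17 ± 0.25 RPKM (SD, n = 4). These are totals over both alleles.

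The direction of the differences was the same in matDKO/CAST embryos at most regions. Of the 3683 regions lower in wild-type ExE 95.1% had a negative difference in matDKO/CAST, 1396 were called lower (7.01% of all regions were) and 0 higher. Of the 2459 that were higher 94.6% had a positive difference, 735 were called higher (4.3% of all regions were) and 2 lower. For the 883 lower focal targets the median was -0.74 in the wild type and -0.49 in matDKO/CAST, and for the 1247 higher broad domains 0.28 and 0.28. The matDKO/CAST count of 2648 called regions moved to 582 without matDKO/CAST ExE replicate 2. In no region was the tissue difference itself called different by limma between matDKO/CAST and B6/CAST (1368 at an unadjusted p below 0.05) or between B6/CAST and CAST/B6 (1201).

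The other marks were read at the same regions. For H3K4me3 2117 regions (9.05%) were called, 476 (2.03%) higher and 1641 (7.01%) lower in ExE. Of the 85 focal targets with more H3K27me3 in ExE 19 had less H3K4me3 and 1 more, with a median difference of -0.52, and of the 883 with less H3K27me3 75 had less H3K4me3 and 7 more, with a median of -0.10. The median H3K4me3 difference was -0.20 over all 1455 focal targets and -0.31 over the 487 not called for H3K27me3, of which 38 had less H3K4me3 and 4 more. The H3K4me3 total moved to 1305, 1357, 1279, 1332 and 945 without B6/CAST Epi replicate 1, B6/CAST Epi replicate 2, B6/CAST ExE replicate 1, B6/CAST ExE replicate 2 and CAST/B6 ExE replicate 1. For H3K36me3, the mark of transcribed gene bodies, 83 regions (0.355%) were called, 56 (0.239%) higher and 27 (0.115%) lower (as deposited 44 and 81), and 0 by limma when any library was left out, with 2500 to 3393 at an unadjusted p below 0.05. In the inputs 0 regions were called by limma, with 1761 at an unadjusted p below 0.05.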

How the data were processed

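The authors made ultra low-input native ChIP-seq libraries from pools of dissected E6.5 tissue, trimmed reads with Trim Galore (0.4.4 per the submitters' processing notes, while the study's methods give another version for its RNA-seq), aligned them with Bowtie2 2.3.2 to GRCm38 masked at strain variants and, per the study's methods, called peaks with chromstaR for each cross and tissue. The deposited lists carry no replicate, and how replicates were combined is not given in the sources used here. The authors deposited RPKM in 1 kb windows, over both alleles together and used here for the autosomes, and peak lists whose score is 0 throughout. In such windows low values are whole multiples of the value of 1 read, which gave the depth. A read over 2 windows counts in both. Allelic counts were not used here.

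Windows were averaged over the merged peaks, leaving out windows above 4 RPKM in the inputs. A CpG-rich window had an observed over expected CpG of at least 0.6 and a GC content of at least 50%. Promoters were means of 3 windows. limma 3.58.1 (R 4.3.3, mean-dependent prior) was fitted to log2(RPKM + 0.5) with a mean for each of the 6 groups of the 12 H3K27me3 libraries, after subtracting each library's median region, and the wild-type contrast averaged both crosses. Adjusted p-values are Benjamini-Hochberg over all regions or promoters, two-sided, with a threshold of 0.05. The pseudocount understates changes at low levels, and on simulated data recovery of changes in regions was tested with the same script. Tables were handled with Python 3.11.15, numpy 2.4.6 and pandas 2.3.3.

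Regions were named as the 8 called ones with the largest difference in each class and direction whose libraries did not overlap, whose higher mean was at least 1 RPKM and which held the start of a named protein-coding gene. Up to 3 promoters with the largest difference per direction were named per gene list, beside defining members. Some genes that these rules name are not reported here. The longest domains were named for their length, and the chromosome 17 stretch was picked with its values in view. The members and lists were chosen with earlier results of these data known. Replicate numbers were not used to pair the libraries in the main fit, since no label ties the numbers to litters. The correlation between tissues of replicate 1 minus replicate 2 was 0.10 for the B6/CAST libraries and 0.062 for those of CAST/B6. Such weak correlations cannot exclude that equal numbers share embryos or litters.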

Additional observations from a re-analysis of the deposited data

Results flagged for a closer look

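In 5 of 90 groups of 4 libraries that were examined, the highest or lowest library stood far from the other 3 (Dixon's test). The groups share libraries and include chosen regions, so this share cannot be set against chance. B6/CAST Epi replicate 1 was the lowest epiblast library at Nrp2 (2.16 RPKM, others 3.68 to 3.87 RPKM), at Cyp26c1 and Cyp26a1 (3.73 RPKM, others 5.86 to 6.08 RPKM) and at Pth1r (2.06 RPKM, others 3.18 to 3.31 RPKM). It was the lowest epiblast library at 596 of the 883 focal targets lower in ExE (67.5%) and at 720 of the 1020 broad domains lower in ExE (70.6%). CAST/B6 ExE replicate 1 was the highest ExE library at 502 (56.9%) and 717 (70.3%) of these. B6/CAST Epi replicate 1 was also nearest to ExE, as the highest epiblast library, at many regions higher in ExE. These were 48 of 85 focal targets (56.5%) and 745 of 1247 broad domains (59.7%). B6/CAST ExE replicate 2 was the lowest ExE library at Lrp4 (0.914 RPKM, others 1.204 to 1.223 RPKM). Over the windows of all regions that were not CpG-rich, CAST/B6 Epi replicate 1 had a mean of 0.992 RPKM and the other epiblast libraries 0.805 to 0.8288 RPKM. Each of the 4 named regions was called in the same direction without the library concerned.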

How the results depend on the processing

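All 35 named regions were called the same way as deposited, relative to background windows and without each library in turn. Apart from the longest domains they were named for being called and for not overlapping as deposited. The choice therefore largely set this agreement. Counts depended on the scaling. As deposited 12476 regions were called (10464 higher), 4377 broad domains (3971 higher), 3224 promoters and 125 H3K36me3 regions, and relative to background windows 13097 regions (11378 higher) and 4305 broad domains (4005 higher), against 6142, 2267, 9791 and 83. The share of higher among called regions was 40.04% relative to the median region, 83.9% as deposited and 86.9% relative to background windows, by construction of the scaling. In B6/CAST alone 2488 regions, 596 focal targets and 727 broad domains were called, and in CAST/B6 alone 4029 regions and 1447 broad domains, where fewer libraries enter. In all 2946 regions were called among the 3968 with a mean of at least 1 RPKM. A stricter CpG-rich threshold gave 473 called focal targets, a length under 10 kb 494 and under 50 kb 1555, and 3714 called broad domains were at least 10 kb and 866 at least 50 kb long, as other regions enter. With 1 window per promoter 4979 were called, with a pseudocount of 0.1 6309 promoters and 974 H3K4me3 regions, and with a mean of at least 0.5 RPKM 4162 promoters; the cause was not tested.

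Leaving out each library in turn gave 4218 to 6193 regions, 841 to 962 focal targets, 1412 to 2314 broad domains, 6055 to 8927 promoters (6055 without B6/CAST ExE replicate 1, 6426 without CAST/B6 ExE replicate 2), 945 to 2148 H3K4me3 regions, 0 to 0 H3K36me3 regions, 582 to 2691 matDKO/CAST regions and 853 to 1007 domains with a lower or higher ratio of CpG-rich to other windows. The ratio, the leave-one-out values of the other marks and of matDKO/CAST, and weights per library (7364 regions) were added after seeing the data. With the replicate number as a block 6709 regions, 1020 focal targets, 2374 broad domains, 12585 promoters and 1330 domains by ratio were called, none moved by over 1.5 times. A count test on reads recovered from the RPKM was planned and not run, since reads over 2 windows are counted in both. Keeping windows with high input changed nothing, as none lay in a region. The fit was less sensitive at low levels, where the pseudocount shrinks differences, and epiblast libraries were shallower.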

Other observations

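The share of broad domains higher in ExE ran from 7.81% to 29.1% between chromosomes. On chromosome 17 97 of 333 (29.1%) were higher and 35 lower, on chromosome 2 169 of 622 (27.2%) were higher and 77 lower, and on chromosome 3 25 of 320 (7.81%) were higher and 71 lower. The autosomes were divided into bins of 5 Mb, and 334 of the bins, not all of them, were ranked by the median difference of their domains. Among the ranked bins the first 2 were neighbours on chromosome 17. They ran from 10 to 15 Mb (median 0.56, 16 of 20 domains higher) and from 5 to 10 Mb (median 0.49, 12 of 13 higher). The next was on chromosome 2 from 30 to 35 Mb, with a median of 0.27. In matDKO/CAST the medians of these 3 bins were 0.78, 0.68 and 0.24. The bins were ranked on the same values and are a description.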
